A study of Mus musculus with 2 samples.

Results

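Cells recognise misplaced nucleic acid through a small set of receptors that switch on type I interferon, and 10 genes of this system were followed in treated EMT6 tumors. They were chosen by gene symbol as the genes for the DNA sensors Cgas and Zbp1, the adaptor Tmem173 (STING), the nuclease Trex1, the RNA sensors Ddx58 and Ifih1, their adaptor Mavs, the kinase Tbk1 and the transcription factors Irf3 and Irf7. Of 55450 genes in the deposited files all 10 were listed, and 9 had at least 1 UMI (unique molecular identifier, a tag that marks 1 captured transcript). EMT6 is a mouse mammary carcinoma line, labelled TNBC by the submitters, and 200000 cells were injected into each BALB/c mouse. Single-cell RNA sequencing with the 10x Genomics 3′ chemistry was applied to 2 libraries, each from tumors of 3 pooled mice.

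The Olaparib + LLY-283 mice received LLY-283, a PRMT5 inhibitor, at 50 mg/kg for 3 days on and 4 days off, together with Olaparib, a PARP inhibitor, at 50 mg/kg. The Combo mice received the same agents plus 200 µg of an antibody against PD-1 at intervals of 3 days. Both groups therefore carried both inhibitors, and no untreated library is analysed here. With 1 library per group, the effects of the antibody, of the pooled mice and of the library preparation cannot be told apart, so no test of the treatment was possible, and all intervals below are 95% intervals that cover counting error only. Fewer molecules captured and fewer transcripts per cell cannot be told apart either.

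As background, Cgas binds double-stranded DNA in the cytosol and makes cGAMP, the messenger that activates Tmem173 on the endoplasmic reticulum. Ddx58 (RIG-I) and Ifih1 (MDA5) bind double-stranded RNA and signal through Mavs on mitochondria. Both routes meet at Tbk1, which phosphorylates Irf3 and Irf7, and these factors induce interferon genes. Trex1 degrades cytosolic DNA, and Zbp1 recognises nucleic acid in the Z conformation and can start necroptosis. Several of these genes, Irf7, Ddx58, Ifih1 and Zbp1 among them, are themselves known to be induced by interferon.

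The promoters of the interferon-induced members are shown because 4 members were higher in cells with more transcripts of other interferon genes, as described below. RefSeq promoter windows (GRCm38.p6, from 250 bases before to 50 bases after the start) were matched by symbol for 8 of the 10 members, and not for Zbp1 and Tmem173. The motif GAAANNGAAA, a simple form of the element bound by interferon-induced factors, was searched on both strands without a mismatch. It was found in 3.44% of 32851 windows, and among the members only in those of Ddx58 and Ifih1, where its bases are in capitals. The Ddx58 stretch lies at chr4:40239796-40240075 on the minus strand and its match runs from base 3 to base 12 after the start. The Ifih1 stretch is 30 bases at chr2:62646214-62646243 on the minus strand, with the match from base 33 to base 42 after the start. The Irf7 stretch at chr7:141266395-141266674, also on the minus strand, holds no match to these letters in its window. Each is written 5′ to 3′ on the strand of its gene.
Ddx58: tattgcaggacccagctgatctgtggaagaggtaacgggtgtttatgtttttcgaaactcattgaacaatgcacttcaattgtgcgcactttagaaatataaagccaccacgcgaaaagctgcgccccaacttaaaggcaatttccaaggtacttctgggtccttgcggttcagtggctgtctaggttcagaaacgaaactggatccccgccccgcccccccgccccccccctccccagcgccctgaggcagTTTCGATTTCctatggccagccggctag
Ifih1: aaagtctggagaagagaatcGAAACAGAAA
Irf7: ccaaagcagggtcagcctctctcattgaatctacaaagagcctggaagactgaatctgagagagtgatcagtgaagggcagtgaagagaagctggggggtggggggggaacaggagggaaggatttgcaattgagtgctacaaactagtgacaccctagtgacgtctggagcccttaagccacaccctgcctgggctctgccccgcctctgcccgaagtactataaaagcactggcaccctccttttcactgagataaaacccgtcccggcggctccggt

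After filtering, 13974 Olaparib + LLY-283 cells and 5672 Combo cells remained, and the libraries shared 39 cell barcodes. Cells were sorted into classes by UMIs of marker genes, and the names given here refer to these markers. Tumor-like cells numbered 8485 and 2543, macrophage-like cells (macrophage and monocyte markers) 880 and 633, neutrophil-like cells 642 and 1290, lymphoid-like cells 55 and 49, fibroblast-like cells 223 and 71, and dendritic-like cells 20 and 34. Over the other named classes pooled, 11 of 11 macrophage markers and 8 of 8 neutrophil markers were over 2-fold higher in both libraries. The same held for 12 of 15 lymphoid markers, 8 of 9 fibroblast markers and 4 of 6 tumor markers. Since these same markers set the classes, such enrichment is largely built in and is no independent check of the names. Because the classes were cut from a score, they are ranges, and 126 of the 880 and 112 of the 633 macrophage-like cells lay within 2 times of a bar. The Combo cells were deeper, with medians of 48118 against 9893 UMIs in tumor-like cells, 11091 against 2111.5 in macrophage-like cells and 1947.5 against 657 in neutrophil-like cells. No name was given to 3499 and 923 cells. In them Irf7 stood at 54.4 and 49.3 CPM and Zbp1 at 34.7 and 42.7 CPM.

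The 9 detected sensing genes had UMIs in every plotted class of both libraries, except Cgas, Ddx58 and Tbk1 in the 55 Olaparib + LLY-283 lymphoid-like cells, where 0 of 55 cells allow a share of cells with a UMI of up to 5.45% (the share that 3 cells would give). The widest class difference with narrow intervals was that of Irf7, the factor that amplifies interferon output. Its level, as counts per 1000000 UMIs of a class (CPM), was 42.5 CPM in Olaparib + LLY-283 tumor-like cells and 33.1 CPM in those of Combo. It reached 163 and 135 CPM in macrophage-like cells, 119.9 and 136 CPM in neutrophil-like cells, and 126 and 122 CPM in dendritic-like cells. Macrophage-like cells thus stood above tumor-like cells by 3.84 times (3.43 to 4.28) and 4.06 times (3.79 to 4.35), and neutrophil-like cells by 2.82 times (2.14 to 3.66) and 4.09 times (3.66 to 4.56). Lymphoid-like cells lay between at 82.2 and 79.2 CPM, from only 6 and 26 UMIs. Fibroblast-like cells were close to tumor-like cells at 50.04 and 25.01 CPM. In Combo the macrophage-like and neutrophil-like levels did not differ beyond their intervals.

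**Figure D1:**
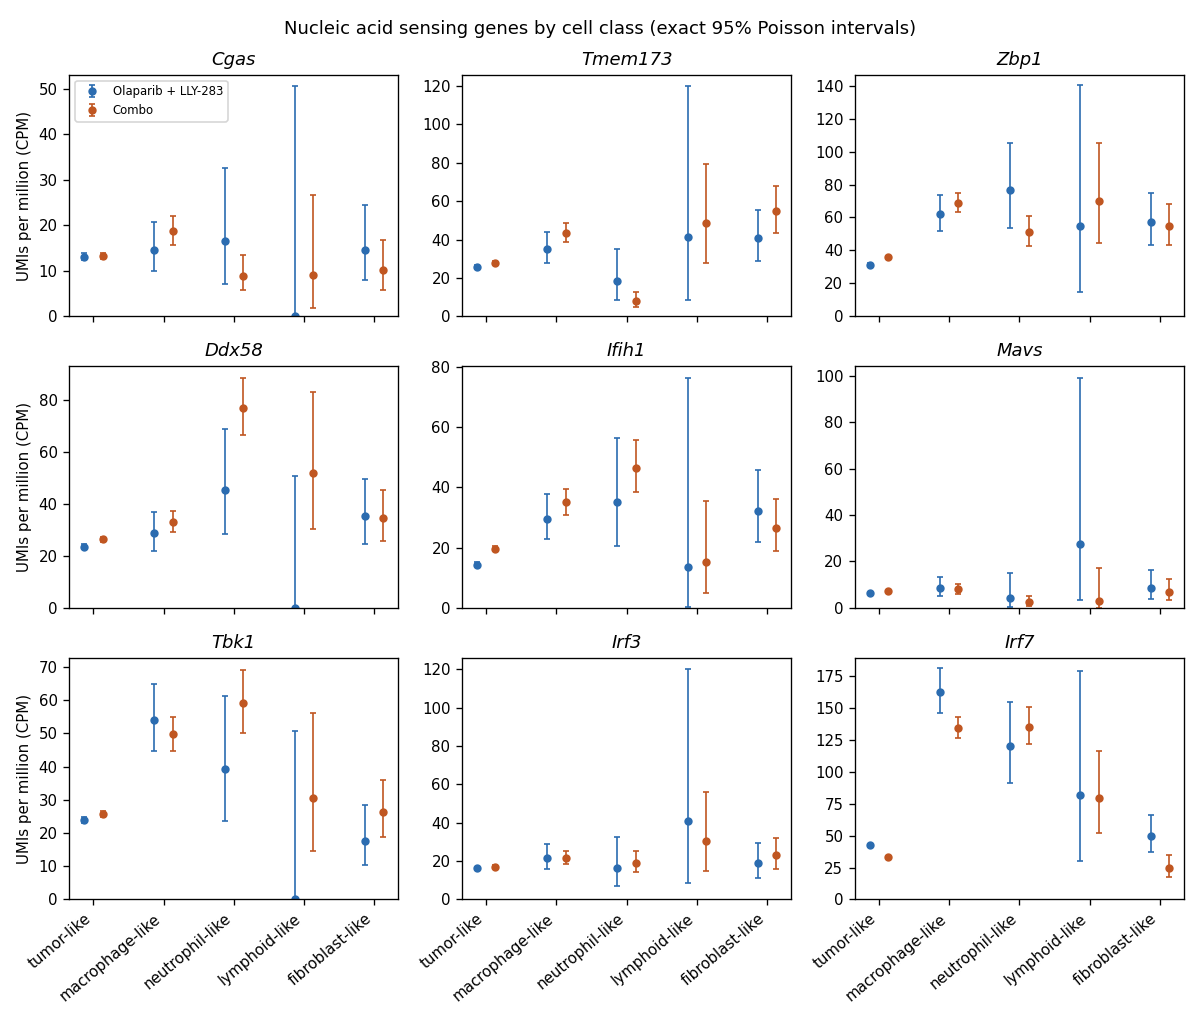
Level of each sensing gene in CPM (linear axis) in 5 cell classes, blue for Olaparib + LLY-283 and orange for Combo, with exact Poisson intervals as bars. Irf7 is highest in macrophage-like and neutrophil-like cells (119.9 to 163 CPM) and Mavs stays below 10 CPM in tumor-like, macrophage-like, neutrophil-like and fibroblast-like cells, while the intervals of lymphoid-like cells are wide.

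Of the DNA arm, Cgas (ENSMUSG00000032344, chr9:78430526-78443237 in mm10, minus strand) ordered the classes differently in the libraries. Tumor-like cells had 13.1 and 13.2 CPM, macrophage-like cells 14.6 and 18.7 CPM, and fibroblast-like cells 14.6 and 10.1 CPM. Neutrophil-like cells gave 16.5 and 8.93 CPM from 8 and 23 UMIs. In Combo the macrophage-like interval of 15.8 to 22.1 CPM lay above that of neutrophil-like cells, 5.66 to 13.4 CPM, and the macrophage-like level was 1.42 times that of tumor-like cells (1.19 to 1.69).

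Tmem173, the cGAMP receptor (ENSMUSG00000024349), had its lowest level among the plotted classes in neutrophil-like cells. They had 18.6 and 8.15 CPM, against 25.5 and 27.9 CPM in tumor-like cells, 35.2 and 43.4 CPM in macrophage-like cells and 40.7 and 54.7 CPM in fibroblast-like cells. In Combo the neutrophil-like level was 0.293 times that of tumor-like cells (0.181 to 0.448), whereas in the Olaparib + LLY-283 library, with 9 UMIs, the interval of 0.333 to 1.39 held 1. The highest levels of Tmem173 were in the few dendritic-like cells, at 111 CPM from 7 UMIs and 94.9 CPM from 31 UMIs.

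Zbp1 (ENSMUSG00000027514, chr2:173206612-173218923, minus strand), the sensor tied to necroptosis, had its lowest level among the plotted classes in tumor-like cells. Its level was 31.1 and 35.8 CPM in tumor-like cells, 62.0 and 68.9 CPM in macrophage-like cells, 76.5 and 51.3 CPM in neutrophil-like cells and 57.3 and 54.7 CPM in fibroblast-like cells. The lymphoid-like level of 54.8 CPM rested on 4 UMIs and the Combo level of 70.1 CPM on 23 UMIs. Against tumor-like cells the macrophage-like ratios were 1.99 (1.66 to 2.37) and 1.92 (1.75 to 2.11).

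Trex1, the nuclease that removes cytosolic DNA, had 0 UMIs in all 16115 and 7542 deposited cells. In tumor-like cells this count allows a share of cells with a UMI of up to 0.0354% and 0.118%, again that of 3 cells. In the mm10 annotation (GENCODE M21) all 1147 exon bases of Trex1 (chr9:109057933-109059734, minus strand) lie within exons of Atrip (chr9:109057933-109074124) on the same strand. Atrip itself had 1280 and 1406 UMIs. Whether reads of Trex1 were assigned elsewhere was not tested, so its value says nothing of its expression.

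The RNA sensors had their highest levels in neutrophil-like cells, with intervals that overlapped those of fibroblast-like and macrophage-like cells in the Olaparib + LLY-283 library and, for Ifih1 of macrophage-like and for Ddx58 of lymphoid-like cells, in Combo. Ddx58 (ENSMUSG00000040296, chr4:40203773-40239828, minus strand) had 45.5 and 76.9 CPM there, against 23.4 and 26.3 CPM in tumor-like cells, 28.6 and 32.9 CPM in macrophage-like cells and 35.4 and 34.5 CPM in fibroblast-like cells. Ifih1 (ENSMUSG00000026896, chr2:62595798-62646255, minus strand) had 35.1 and 46.6 CPM in neutrophil-like cells, 14.3 and 19.6 CPM in tumor-like cells and 29.6 and 35.1 CPM in macrophage-like cells. The neutrophil-like to tumor-like ratio of Ifih1 was 2.45 (1.42 to 3.94) and 2.38 (1.96 to 2.85), and that of Ddx58 was 1.94 (1.22 to 2.95) and 2.92 (2.52 to 3.37). Mavs (ENSMUSG00000037523, chr2:131234063-131248025, plus strand), the adaptor of both, had 6.49 and 7.14 CPM in tumor-like cells and 8.45 and 7.97 CPM in macrophage-like cells. With 2 and 6 UMIs in neutrophil-like cells, it was 0.326 times the tumor-like level in Combo (0.119 to 0.713), with an interval of 0.0770 to 2.31 in the other library.

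Tbk1 (ENSMUSG00000020115, chr10:121546455-121586787, minus strand), the shared kinase, had 54.0 and 49.7 CPM in macrophage-like cells and 39.3 and 59.0 CPM in neutrophil-like cells, against 23.9 and 25.7 CPM in tumor-like cells and 17.7 and 26.4 CPM in fibroblast-like cells. Over tumor-like cells the macrophage-like ratios were 2.26 (1.86 to 2.72) and 1.93 (1.73 to 2.15), and the neutrophil-like ratios 1.64 (0.987 to 2.57), from 19 UMIs and with an interval that held 1, and 2.30 (1.94 to 2.70). Irf3 (ENSMUSG00000003184, chr7:44997648-45002848, plus strand), the factor held ready in resting cells, had levels of 16.3 and 17.0 CPM in tumor-like cells, 21.6 and 21.5 CPM in macrophage-like cells, 16.5 and 19.0 CPM in neutrophil-like cells and 18.8 and 23.0 CPM in fibroblast-like cells. When the classes were ranked by level, neighbors had overlapping intervals in both libraries. Over tumor-like cells the macrophage-like ratios were 1.33 (0.968 to 1.78) and 1.26 (1.07 to 1.48), the second with an interval that left out 1. In lymphoid-like cells Irf3 was at 41.1 and 30.5 CPM, from only 3 and 10 UMIs. For Irf7 the gene lies at chr7:141262706-141266481 (ENSMUSG00000025498, minus strand).

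A level of at least 2-fold over tumor-like cells in both libraries was reached by 1 of 9 members in macrophage-like cells (Irf7), beside 18.4% of all genes tested. In neutrophil-like cells it was reached by 2 of 8 (Ifih1 and Irf7), beside 15.4% of genes. No member reached it in lymphoid-like cells (0 of 6, beside 14.5%) or in fibroblast-like cells (0 of 9, beside 14.3%). With 9 or fewer members, counts of this size lie near the shares over all genes.

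The share of cells with a UMI of a member followed depth. For Irf7, 28.5% of Olaparib + LLY-283 tumor-like cells and 54.0% of Combo tumor-like cells had a UMI, but after each cell was thinned to 1000 UMIs the shares were 4.00% (3.59 to 4.43) and 3.38% (2.71 to 4.16). Macrophage-like cells gave 20.6% and 44.7% with all UMIs, and 11.7% (9.52 to 14.2) and 11.9% (9.43 to 14.7) after thinning. Summed over the 9 detected members, a thinned tumor-like cell held 0.192 and 0.202 of them on average, a macrophage-like cell 0.347 and 0.396, and a fibroblast-like cell 0.278 and 0.304. A neutrophil-like cell held 0.413 and 0.358, but the first value rests on 66 cells, as 576 were below 1000 UMIs. Skeletal muscle cells, named from contractile genes, held 0.0845 and 0.133, from only 20 and 24 cells with at least 1000 UMIs. No class is known to lack these genes, so the level that free RNA alone would give was not measured. The 6 tumor markers summed to 436 and 234 CPM in neutrophil-like cells and to 200 and 105 CPM in macrophage-like cells. In tumor-like cells they summed to 1015 and 924 CPM. How far transcripts from other cells add to the levels of the sensing genes in each class was not tested.

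Between the libraries, most members were at nearly the same level in tumor-like cells, with Irf7 lower and Ifih1 higher in Combo. The Combo over Olaparib + LLY-283 ratio of Irf7 was 0.780 (0.747 to 0.814) in tumor-like cells and 0.826 (0.730 to 0.936) in macrophage-like cells. That of Ifih1 was 1.37 (1.28 to 1.46) in tumor-like cells and 1.19 (0.897 to 1.59) in macrophage-like cells. Of the Ifih1 UMIs in Combo tumor-like cells 7.34% came from the 5 cells with the most, against 2.33% in the other library. The other tumor-like ratios ran from 1.01 for Cgas (0.934 to 1.08) to 1.15 for Zbp1 (1.10 to 1.21), with Tmem173 at 1.09 (1.04 to 1.15), Ddx58 at 1.12 (1.07 to 1.19) and Tbk1 at 1.07 (1.02 to 1.13). The median ratio of the 9 members was 1.09, and that of all genes tested 1.04.

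No member passed 1.5-fold in either direction in tumor-like cells (0 of 9), where 6.13% of genes were higher and 3.26% lower in Combo. The same held in macrophage-like cells (0 of 9), where 7.2% of genes were higher and 4.69% lower. In neutrophil-like cells 6 members had enough UMIs, and Ddx58 at 1.69 (1.09 to 2.76) and Tbk1 at 1.503 (0.930 to 2.56) were past it. Zbp1, at 0.670 (0.462 to 0.993), lay just inside the lower limit. Cgas at 0.540 (0.233 to 1.40), Tmem173 at 0.438 (0.192 to 1.09) and Mavs at 0.563 (0.101 to 5.71) had too few UMIs to be counted. In neutrophil-like cells 20.6% of all genes tested were higher and 20.6% lower, so this fold was commonly passed in that class. The Olaparib + LLY-283 values rest on 22 UMIs of Ddx58 and 19 of Tbk1. The 6 tumor markers stood at 436 and 234 CPM in neutrophil-like cells, and their part in these ratios was not tested. In fibroblast-like cells Irf7 was at 0.500 of its Olaparib + LLY-283 level (0.316 to 0.784), from 48 and 37 UMIs. The summed level of 16 interferon-stimulated genes that are not members was 1059.6 CPM and 1059.8 CPM in tumor-like cells (Olaparib + LLY-283 first). In macrophage-like cells it was 2359 and 2117 CPM, and in neutrophil-like cells 2754 and 3534 CPM.

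**Figure D2:**
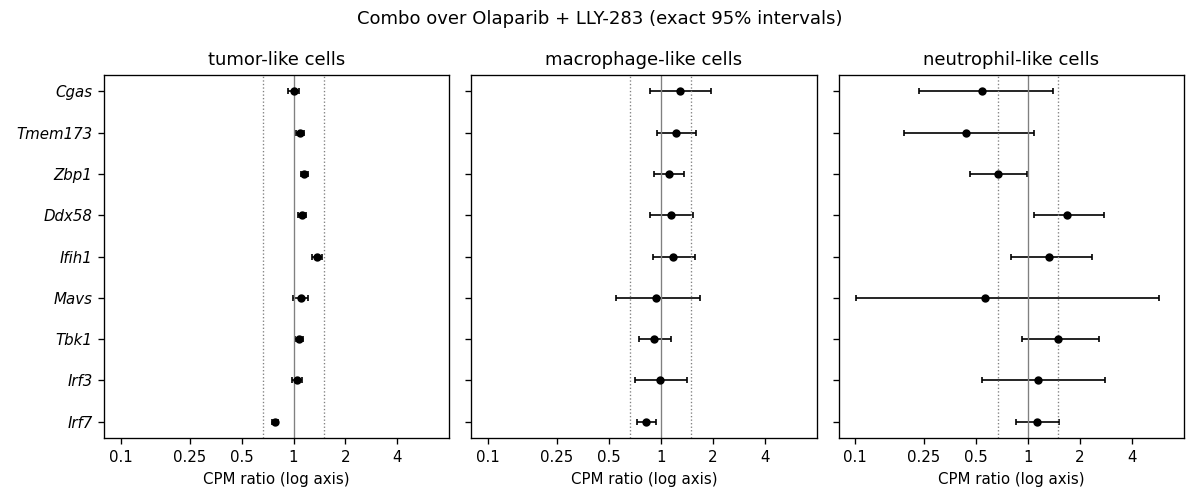
Ratio of CPM in Combo over Olaparib + LLY-283 for each sensing gene in tumor-like, macrophage-like and neutrophil-like cells on a log axis, with exact intervals as bars, 1 as a solid line and 1.5-fold in each direction as dotted lines. In tumor-like cells Irf7 lies below 1 at 0.780 and Ifih1 above at 1.37, both inside the dotted lines, and the neutrophil-like intervals are wide.

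Within tumor-like cells 4 of the 9 members differed by over 1.5-fold with the level of other interferon genes in both libraries. Tumor-like cells with at least 5000 UMIs were ordered within each library by the share of their UMIs from the 16 interferon-stimulated genes, such as Isg15 and Ifit1, and cut into 4 equal groups. Irf7 went from 12.8 CPM in the lowest group to 18.8, 33.9 and 101.7 CPM in the highest among Olaparib + LLY-283 cells, and from 7.94 to 12.8, 20.8 and 96.3 CPM in Combo. Zbp1 went from 12.6 to 68.5 CPM and from 13.4 to 81.8 CPM. Both were higher at every step in both libraries.

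Ifih1 went from 6.75 to 30.2 CPM and from 9.86 to 44.7 CPM between the lowest and the highest group, and Ddx58 from 15.6 to 38.7 CPM and from 15.4 to 44.8 CPM. As ratios, Irf7 was 7.96 times (7.04 to 9.03) and 12.1 times (10.7 to 13.8) higher, Zbp1 5.46 times (4.81 to 6.21) and 6.12 times (5.52 to 6.80), Ifih1 4.48 times (3.76 to 5.37) and 4.54 times (4.01 to 5.14) and Ddx58 2.47 times (2.18 to 2.80) and 2.91 times (2.62 to 3.23). These 4 of 9 members passed 1.5-fold in both libraries, beside 2.08% of genes tested.

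The other 5 members differed by less. Highest over lowest, Tbk1 stood at 0.998 (0.885 to 1.13) and 1.02 (0.927 to 1.13), Mavs at 1.05 (0.824 to 1.33) and 1.03 (0.856 to 1.245), Irf3 at 1.15 (0.997 to 1.33) and 1.15 (1.01 to 1.31) and Tmem173 at 1.04 (0.928 to 1.17) and 1.14 (1.04 to 1.26). Cgas was at 0.992 (0.850 to 1.16) with Olaparib + LLY-283 and 0.701 (0.608 to 0.807) in Combo, where its level was 15.7, 14.7, 11.1 and 11.0 CPM from the lowest group to the highest. The Combo intervals of Irf3, Tmem173 and Cgas leave out 1, and those of Tbk1 and Mavs hold it in both libraries. The summed level of the 11 macrophage markers ran from 47.7 to 56.3 CPM over the 4 Olaparib + LLY-283 groups and from 63.4 to 68.7 CPM over those of Combo, against 10136 and 10258 CPM in macrophage-like cells. From the lowest to the highest group the fibroblast markers went from 475 to 589 CPM with Olaparib + LLY-283 and from 501 to 647 CPM in Combo, and the tumor markers from 1104 to 927 CPM and from 1017 to 794 CPM. The G2 and mitosis genes described below went from 2044 to 1838 CPM and from 2050.0 to 1697 CPM. Median depth ran from 10267 to 11118.5 UMIs and from 46271 to 51166 UMIs. The part of these values in the result was not tested.

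**Figure D3:**
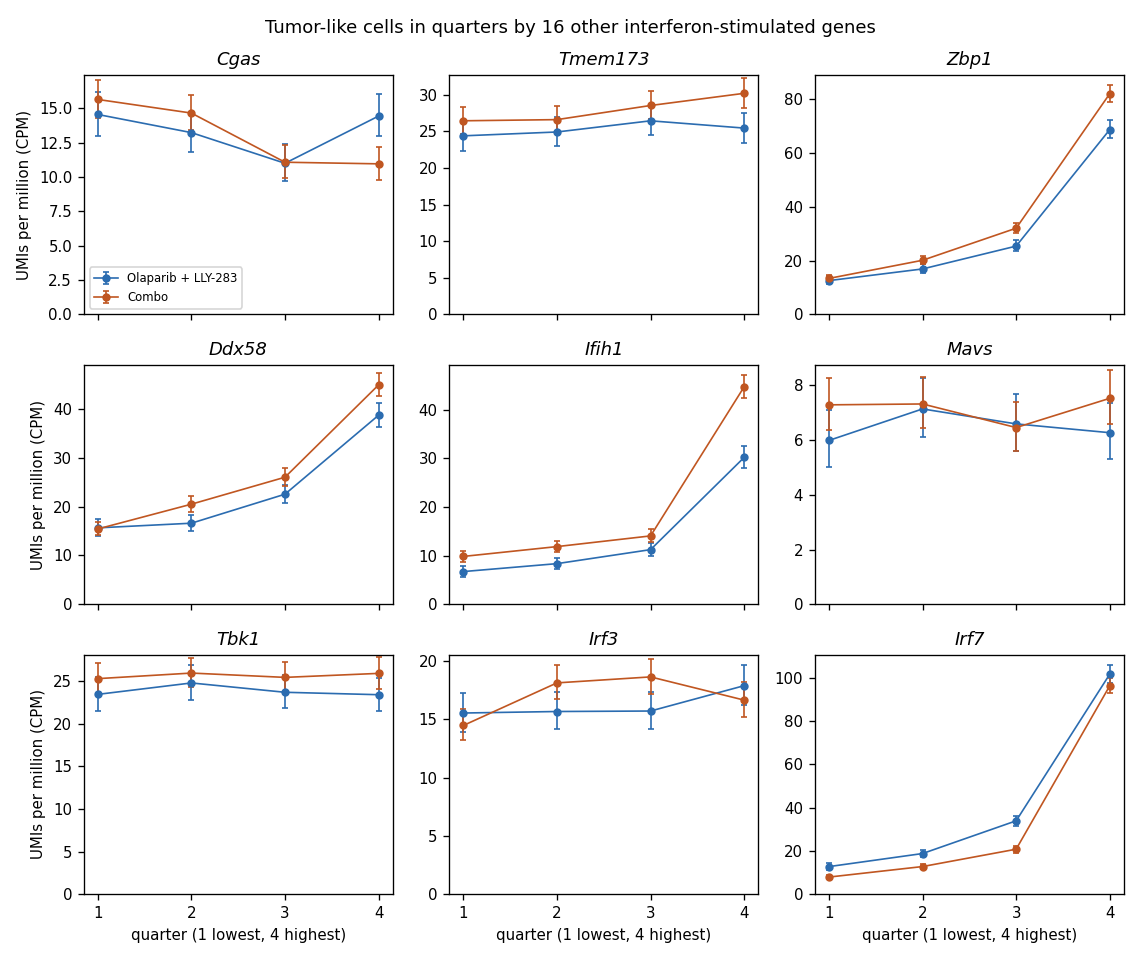
Level of each sensing gene in CPM (linear axis from 0) in tumor-like cells cut into 4 equal groups by the share of UMIs from 16 other interferon-stimulated genes, with exact Poisson intervals, blue for Olaparib + LLY-283 and orange for Combo. Irf7, Zbp1, Ifih1 and Ddx58 are highest in the fourth group of both libraries, where Tbk1, Mavs and Tmem173 are at 0.998 to 1.14 times their level in the lowest group.

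Macrophage-like cells were looked at after the tumor-like result was known. Cells with at least 1000 UMIs were cut into a lower and a higher group of equal size by the same 16 genes, 380 and 379 cells with Olaparib + LLY-283 and 312 and 311 in Combo. Irf7 was at 59.7 and 259 CPM in the lower and higher groups of the first library and at 35.8 and 236 CPM in Combo. Zbp1 was at 25.3 and 93.4 CPM and at 25.8 and 113 CPM. Both were thus several times higher where the other interferon genes were high.

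Ddx58 was 4.91 times higher (2.38 to 11.4) and 2.76 times higher (2.08 to 3.71), and Ifih1 2.03 times (1.15 to 3.70) and 2.14 times (1.64 to 2.81). These 4 of 9 were the members past 1.5-fold in both libraries, beside 3.03% of genes tested. Tbk1 and Mavs passed it with Olaparib + LLY-283 and Tmem173 in Combo. For Tbk1 the ratios were 1.54 (1.03 to 2.33) and 0.980 (0.795 to 1.21), for Irf3 0.777 (0.400 to 1.49) and 0.903 (0.655 to 1.24), for Tmem173 1.40 (0.851 to 2.32) and 1.51 (1.20 to 1.90), and for Mavs 1.72 (0.585 to 5.68) and 1.34 (0.779 to 2.32). For Cgas they were 1.08 (0.492 to 2.38) and 0.802 (0.566 to 1.13).

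**Figure D4:**
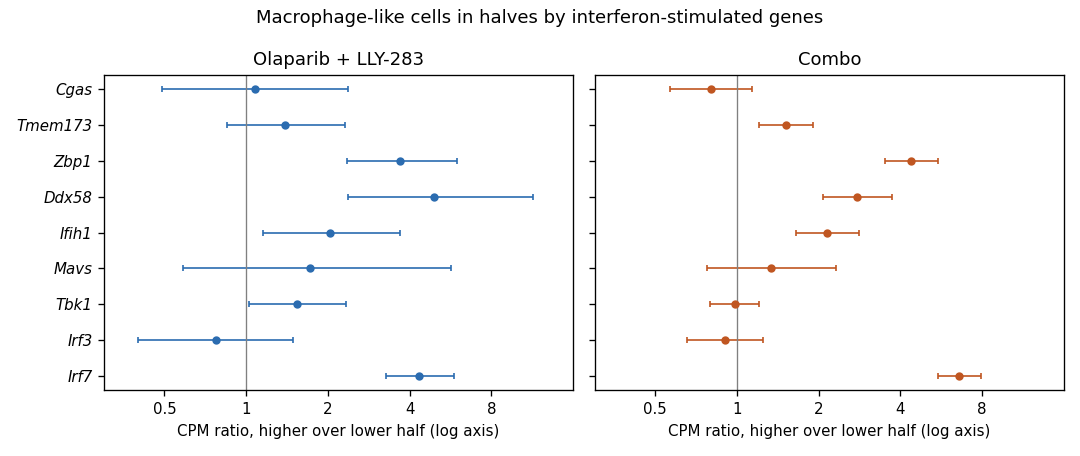
Ratio of CPM between macrophage-like cells with more and with fewer UMIs of 16 interferon-stimulated genes, on a log axis with exact intervals, for Olaparib + LLY-283 on the left and Combo on the right. Irf7, Ddx58, Zbp1 and Ifih1 lie at 2.03 or more in both libraries, and Irf3, Cgas and Mavs have intervals that hold 1 in both.

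Cgas was lowest in tumor-like cells with few transcripts of cell cycle genes. When the same tumor-like cells were cut into 4 groups by the UMI share of 15 genes of G2 phase and mitosis, such as Mki67 and Top2a, Cgas went from 8.43 to 12.2, 15.7 and 15.0 CPM with Olaparib + LLY-283 alone and from 3.42 to 9.15, 18.4 and 17.6 CPM in Combo. The highest over the lowest group was 1.78 (1.48 to 2.15) and 5.13 (4.09 to 6.49). Cgas was the 1 member of 9 past 1.5-fold in both libraries, beside 8.1% of genes tested, and 1 of 9 is near that share.

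Irf7 ran the other way, at 0.764 (0.701 to 0.833) and 0.520 (0.476 to 0.568). Zbp1 was at 0.941 (0.848 to 1.04) and 0.723 (0.664 to 0.786), and Tbk1 at 1.03 (0.913 to 1.16) and 1.10 (0.993 to 1.21). The summed level of the 16 interferon-stimulated genes ran from 1030.3 to 1093 CPM over these groups with Olaparib + LLY-283 and from 952 to 1244 CPM in Combo. Median depth rose with the cycle genes, from 8967 to 13277 UMIs and from 40677 to 63465.5 UMIs. The fibroblast markers were at 665 CPM in the lowest and 507 CPM in the highest group with Olaparib + LLY-283, and at 837 and 460.5 CPM in Combo. The part of these values in the result was not tested.

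**Figure D5:**
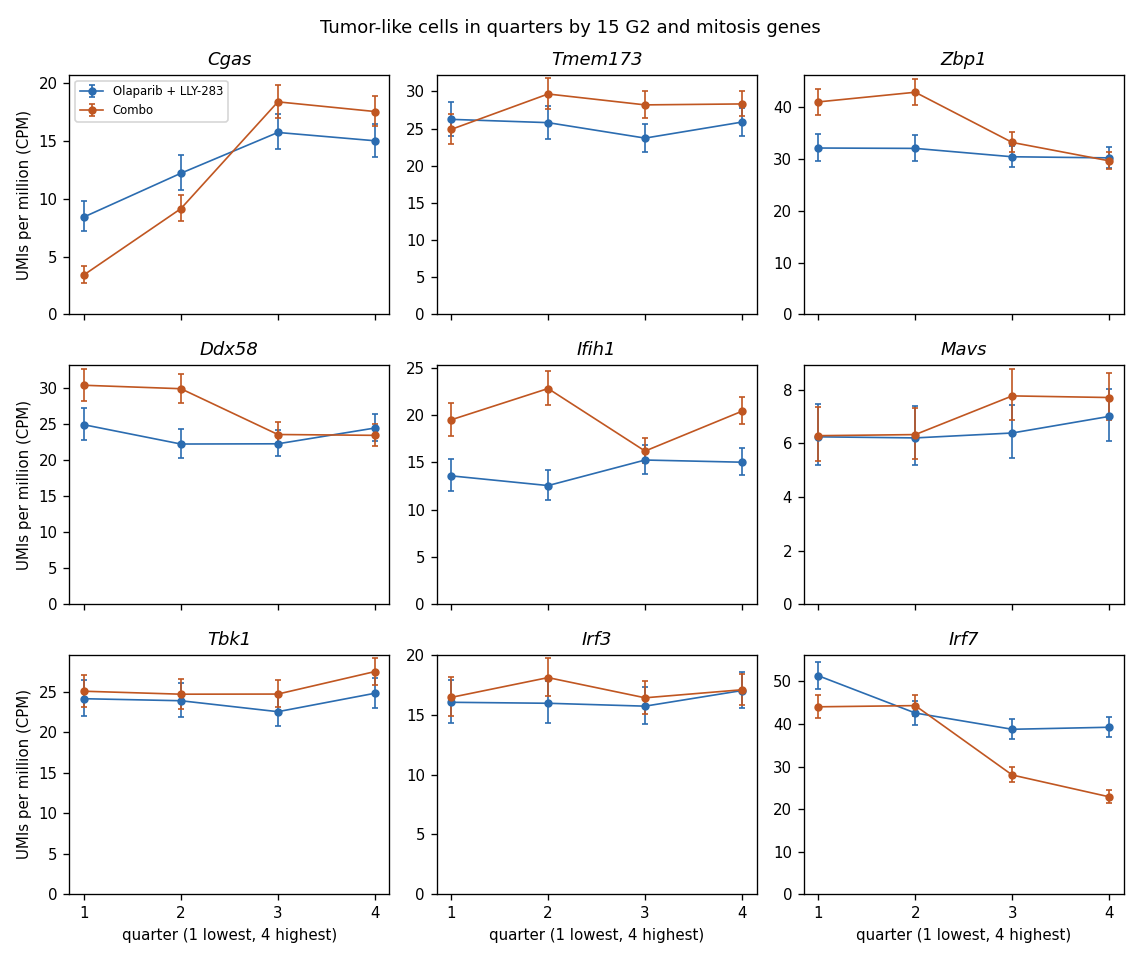
Level of each sensing gene in CPM (linear axis from 0) in tumor-like cells cut into 4 equal groups by the UMI share of 15 G2 and mitosis genes, with exact Poisson intervals, blue for Olaparib + LLY-283 and orange for Combo. Cgas is lowest in the group with the fewest cycle UMIs, 8.43 and 3.42 CPM, and Irf7 is lowest in the upper groups.

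Genes around the members were followed as 7 lists, of which 70 genes were in the files. In tumor-like cells 6.13% of all genes tested were higher by 1.5-fold in Combo and 3.26% lower. Of 14 genes of RNA sensing and its effectors, 3 were higher and 0 lower. They were Dhx58, the third RIG-I-like receptor, at 8.49 and 13.6 CPM (ratio 1.60, 1.48 to 1.74), Unc93b1, the chaperone of endosomal Toll-like receptors, at 11.9 and 19.0 CPM (1.60, 1.49 to 1.71), and Tlr7 from 14 and 36 UMIs (1.99, 1.05 to 3.99). Zc3hav1, an antiviral RNA-binding protein, led this list in level at 65.2 and 64.1 CPM. Of 5 interferon regulatory factors tested 1 was higher, Irf1, at 37.6 and 72.1 CPM (1.92, 1.85 to 1.99). Irf1 was also the highest in level in Combo, while Irf2, at 43.3 and 52.5 CPM, led with Olaparib + LLY-283.

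Among genes that remove DNA or cGAMP, 1 of 8 was higher in Combo tumor-like cells. This was the lysosomal nuclease Dnase2a, at 5.85 and 9.08 CPM (1.55, 1.40 to 1.72). Samhd1, which degrades deoxynucleotides, was at 67.2 and 73.9 CPM and led in level in Combo. Rnaseh2c, at 69.9 and 59.3 CPM, led with Olaparib + LLY-283. The DNA sensing list had 1 of 9 higher, Aim2, from 22 and 48 UMIs (1.69, 0.998 to 2.93). It was led by Ifi203 (98.3 CPM) with Olaparib + LLY-283. In Combo it was led by Mndal (98.8 CPM), with Ifi203 at 97.7 CPM. None of 9 kinases and adaptors (led by Tank), 6 interferon genes and receptors (led by Jak1) or 5 Zbp1 effectors (led by Mlkl, at 74.6 and 69.3 CPM) passed 1.5-fold. No gene tested in the 7 lists, those with at least 50 UMIs, was lower by that fold in Combo tumor-like cells. Over all genes tested there, 6.13% were higher and 3.26% lower.

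In macrophage-like cells, where 7.2% of all genes tested were higher and 4.69% lower, 2 of 9 kinases and adaptors were higher in Combo, Ikbke, a kinase related to Tbk1, at 1.64 (1.17 to 2.35) and Traf6 at 1.63 (1.02 to 2.73). Of 6 interferon genes and receptors 2 were higher, the receptor chain Ifnar1 at 54.0 and 90.3 CPM (1.67, 1.37 to 2.06) and the transcription factor Stat2 at 27.7 and 43.7 CPM (1.58, 1.19 to 2.12). Of 15 RNA sensing genes 2 were lower, Oas1a at 25.8 and 5.71 CPM (0.221, 0.145 to 0.336) and Tlr8 at 17.8 and 11.4 CPM (0.640, 0.432 to 0.964). The gene of this list that was higher, Oas2 (1.53, 0.942 to 2.60), and the 1 of 9 DNA sensing genes that was higher, Prkdc (1.52, 0.835 to 3.00), had intervals that held 1. None of 7 genes that remove DNA or cGAMP, 5 interferon regulatory factors or 5 Zbp1 effectors tested passed 1.5-fold in either direction. The highest levels in these cells were those of Unc93b1, Irf8, Samhd1, Jak1, Casp8 and Tank in their lists, in both libraries. Of the DNA sensing genes Ifi203 led with Olaparib + LLY-283 (130.5 CPM, Ifi207 124.4 CPM). Ifi207 led in Combo (160 CPM, Ifi203 128.9 CPM).

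Transcripts of the listed interferons themselves were nearly absent from tumor-like and macrophage-like cells. The level of Ifng in lymphoid-like cells was not examined, and neither were interferon genes outside the list. Of 15 interferon genes and receptors 5 had no UMI in tumor-like cells and 7 had none in macrophage-like cells. Ifnb1, the main target of the pathway and named here after its values were seen, had 17 UMIs in 3 of 8485 Olaparib + LLY-283 tumor-like cells, 14 of them in 1 cell. In Combo it had 1 UMI in 2543 tumor-like cells.

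Across 6 classes in both libraries, 12 points that share library and depth within a library, the genes with the pattern of log2(CPM + 1) most like each member were found among 11247 genes. Pearson's r of the 3 closest genes was 0.982 or more for Cgas (Epb41l1, Slc9a8, Mrtfa), 0.981 or more for Tmem173 (Rad17, Pvr, Tram1), 0.933 or more for Zbp1 (Icam1, Plac8, Itpkb) and 0.982 or more for Ddx58 (Lysmd3, Preb, Khdc4). It was 0.974 or more for Ifih1 (Nek6, Nbr1, Impact), 0.947 or more for Mavs (Fam3a, Dus1l, Bcs1l), 0.957 or more for Tbk1 (Pxn, Vps26a, Agtpbp1), 0.900 or more for Irf3 (Zfp983, Rnf34, Kansl3) and 0.968 or more for Irf7 (Fuca2, Diaph1, Lmbrd1). These are the highest of many values over few points and are given as a description. The 6 classes were those with at least 30 cells in each library, with lymphoid-like and skeletal muscle cells among them. Some members had no UMI at such a point, as Cgas in Olaparib + LLY-283 lymphoid-like cells and in Combo skeletal muscle cells. The part of these points in r was not tested.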

How the data were processed

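The authors deposited, per library, a matrix of counts, the UMIs of every gene in every cell, not normalized. The methods name Cell Ranger v7.0.0, the matrix headers version 6.1.2, and mm10 was the build. All 55450 gene identifiers are in GENCODE M21. The libraries held 16115 and 7542 cells with 147214934 and 162522700 UMIs. Cells were kept if they had 200 genes or more and less than 20% of UMIs from mitochondria (86 and 1586 left out). Scrublet's automatic threshold called 0 doublets, so the cells with the highest scores were left out up to the expected number (0.8% per 1000 cells; 2055 and 284 cells). Doublets may remain.

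A cell took the class whose marker CPM was highest relative to a bar (1600 macrophage, 10000 neutrophil, 400 dendritic, 800 lymphoid, 10000 fibroblast) with at least 3 marker UMIs. A cell was left out as mixed if a second class also reached its bar and lay within 4 times of the first. A cell with 10 tumor marker UMIs at 400 CPM was left out in the same way. The tumor marker rule was not applied to fibroblast-like cells, which held 252 and 254 CPM of these markers. Tumor-like cells had at least 3 keratin-list UMIs at 200 CPM and no other class at 0.5 of its bar. The bars were set after the marker levels were seen.

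UMIs were summed per class and given as CPM with exact Poisson intervals, ratios with exact conditional intervals, and shares with Clopper-Pearson intervals (for a share of 0, the upper limit is that of 3 cells), also as the expected share at 1000 UMIs per cell, without cells below that depth. Genes needed 50 UMIs over both libraries, and comparisons with tumor-like cells also 10 UMIs in the other class. Named genes are all members and the 3 genes most like each member. For each pathway list they are the highest by CPM in each library and those past 1.5-fold with an interval leaving out 1. Aim2, Prkdc, Oas2 and Ifnb1 were named after their values were seen. The members and lists were chosen with earlier results of these data known. The minimum of 10 UMIs and the macrophage-like split were added after the data were seen. The ratios with their intervals and the thinning formula were tested on simulated Poisson counts. The naming of classes, the doublet step and the splits of cells were not tested in this way. Python 3.11.15, scanpy 1.11.5, numpy 2.4.6, scipy 1.17.1, pandas 2.3.3, leidenalg 0.10.2 and matplotlib 3.10.9 were used.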

Additional observations from a re-analysis of the deposited data

Results flagged for a closer look

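Zbp1 stood at 0.670 of its Olaparib + LLY-283 level in Combo neutrophil-like cells (0.462 to 0.993) and at 1.15 times that level (1.152) in Combo tumor-like cells (1.10 to 1.21), opposite directions whose counting intervals both leave out 1. The difference between the classes was not tested, and the Olaparib + LLY-283 neutrophil-like value rests on 37 UMIs from 642 cells with a median of 657 UMIs. With only cells of at least 2000 UMIs the neutrophil-like ratio was 0.884. Of all genes tested in neutrophil-like cells, 20.6% were lower in Combo by at least 1.5-fold and 33.6% by a ratio of 5 to 4.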

How the results depend on the processing

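With 1 library per group no replicate could be left out. No paired analysis was possible because no result comes from a test and each group has 1 library. At a looser fold (a ratio of 5 to 4), 1 member of 9 was higher (Ifih1) and 1 lower (Irf7) in Combo tumor-like cells, 1 of 9 was higher and 0 lower in macrophage-like cells, and 3 of 6 were higher and 1 lower in neutrophil-like cells. At that fold 16.3%, 21.6% and 32.7% of all genes tested were higher in these classes, and 8.27%, 11.1% and 33.6% lower. The count of members past 1.5-fold higher in Combo neutrophil-like cells was 2 of 6. It became 1 with a 10% mitochondrial limit, with Leiden clusters, without the 1% deepest cells and with the mean of per-cell CPM. It became 0 at a fold of 2. With only cells of at least 2000 UMIs it became 4, but only the Ddx58 ratio, 2.50, was finite. Ifih1, Tbk1 and Irf3 had no UMI in those Olaparib + LLY-283 cells. The count lower in Combo neutrophil-like cells, 0 of 6, became 1 with a 10% mitochondrial limit, with a stricter lead of the marker list and with the mean of per-cell CPM. With the mean of per-cell CPM, 3 of 9 members rather than 1 were at least 2-fold higher in macrophage-like than in tumor-like cells. The cause of these shifts was not tested. The count of 4 members that were higher with interferon output was the same with tumor-like cells of at least 2000 or at least 10000 UMIs. On the log2 scale, the Combo over Olaparib + LLY-283 ratio in tumor-like cells ran from 0.36 to 0.45 for Ifih1 and from -0.37 to -0.24 for Irf7 over the alternatives, and in macrophage-like cells from -0.35 to -0.0069 for Irf7. Shares of cells changed with every thinning depth tried. Small classes limit the depth: no value of lymphoid-like or dendritic-like cells separates the libraries.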
